A study of Mus musculus with 12 samples.

Results

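The TGF-beta and BMP pathway genes of the mouse organ of Corti, which holds the sensory hair cells of the cochlea, were followed across mice that lack clarin-1, clarin-2 or both. They were taken from the count tables by symbol, 47 through the names of the ligand, receptor and Smad families (Bmp, Gdf without Gdf15, Tgfb, Inhb, Acvr, Bmpr, Tgfbr and Smad) and 11 by name (Lefty1, Lefty2, Inha, Nog, Chrd, Grem1, Fst and Id1 to Id4). This gave 58 of the 55348 genes listed, of which 50 had enough counts to be tested.

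Ligands of the TGF-beta family bind pairs of type I and type II serine/threonine kinase receptors at the cell surface. TGF-beta, activin and Nodal ligands act through Smad2 and Smad3, BMPs and some GDFs through Smad1, Smad5 and Smad9, and both arms share Smad4. Secreted antagonists such as noggin, chordin, gremlin and follistatin bind the ligands, Smad6 and Smad7 inhibit from inside the cell, and the Id genes are direct targets of the BMP arm. In the inner ear, BMP signalling is known for its part in the patterning of the sensory epithelium during development.

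Polyadenylated RNA was sequenced from organs of Corti freed of the stria vascularis and modiolus, taken at postnatal day 21, in 4 genotypes of 3 libraries each. Clrn1-/- mice carried a germline deletion of a floxed Clrn1 exon made with PGK-cre, Clrn2-/- mice were homozygous for the clarinet allele, a nonsense mutation of Clrn2, and Clrn1-/-Clrn2-/- mice came from a cross of these lines. The wild-type mice came from breedings of their own rather than from mutant litters, and breeding and genotype therefore cannot be told apart in any comparison with wild-type. The libraries held from 30008679 to 41049302 counts on genes, and levels are given as CPM, counts scaled to a common library size after TMM normalization, with the mean ± SD of 3 libraries. Which animals went into a library was not stated, and the p-values therefore measure the spread between libraries. Clrn1 stood at 25.8 ± 2.46 CPM in wild-type and 28.8 ± 2.83 in Clrn2-/- libraries, against 2.83 ± 0.184 in Clrn1-/- and 2.30 ± 0.482 where both were mutated, which is as labelled. Clrn2 stood at 2.72 ± 0.726 CPM in wild-type and was lower in all 3 mutants, at 0.915 ± 0.107 (Clrn1-/-), 1.23 ± 0.172 (Clrn2-/-) and 1.08 ± 0.138 (Clrn1-/-Clrn2-/-), so that it does not separate the Clrn1-/- libraries from those that carry the Clrn2 allele.

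Promoter sequence is shown for 4 members that stand for the different behaviours described below, namely Smad6 and Id4, which BMP signalling is known to induce, Grem1, a BMP antagonist that rose, and Inhbb, an activin subunit that fell. Each run holds the 250 bases before the RefSeq transcription start on GRCm38.p6, written 5′ to 3′ on the strand of the gene, and none of them overlaps an exon of its own gene in Gencode M21. They lie at chr9:64022060-64022309 (minus strand) for Smad6, chr13:48260866-48261115 (plus strand) for Id4, chr2:113758649-113758898 (minus strand) for Grem1 and chr1:119422249-119422498 (minus strand) for Inhbb. Capitals mark the motif GGCGCC and, on either strand, the motif GGAGCC, both known as GC-rich elements bound by Smads of the BMP arm, as well as the short Smad box CAGAC on either strand.
Smad6: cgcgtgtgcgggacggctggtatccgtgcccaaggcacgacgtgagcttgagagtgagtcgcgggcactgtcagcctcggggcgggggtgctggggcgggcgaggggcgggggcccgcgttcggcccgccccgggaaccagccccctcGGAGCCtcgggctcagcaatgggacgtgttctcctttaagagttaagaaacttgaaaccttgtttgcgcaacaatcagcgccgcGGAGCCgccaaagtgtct
Id4: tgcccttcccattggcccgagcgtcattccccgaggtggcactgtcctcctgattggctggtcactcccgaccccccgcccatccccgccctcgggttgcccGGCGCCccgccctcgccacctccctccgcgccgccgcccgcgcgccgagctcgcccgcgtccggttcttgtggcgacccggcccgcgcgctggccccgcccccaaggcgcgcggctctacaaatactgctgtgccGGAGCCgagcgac
Grem1: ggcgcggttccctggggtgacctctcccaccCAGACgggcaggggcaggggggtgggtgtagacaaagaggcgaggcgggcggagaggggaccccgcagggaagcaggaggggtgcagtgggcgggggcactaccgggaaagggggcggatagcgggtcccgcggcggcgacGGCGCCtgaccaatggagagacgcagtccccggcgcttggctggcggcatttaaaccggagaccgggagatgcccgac
Inhbb: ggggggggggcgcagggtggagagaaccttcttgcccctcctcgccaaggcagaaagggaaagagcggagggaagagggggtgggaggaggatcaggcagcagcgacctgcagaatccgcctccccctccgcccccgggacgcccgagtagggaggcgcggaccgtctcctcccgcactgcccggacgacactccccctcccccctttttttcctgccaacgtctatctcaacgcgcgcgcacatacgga

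Of the 58 members, 39 had an entry in the RefSeq promoter table, with 46 windows. GGCGCC lay in 10 of these windows (21.7%) and in 9.59% of all 32851 windows of the same length, GGAGCC in 22 (47.8%) against 26.0%, and CAGAC in 20 (43.5%) against 42.2%. Smad6 held GGAGCC at 2 places, Id4 held GGCGCC and GGAGCC, Grem1 held CAGAC and GGCGCC, and Inhbb held none of them. The motifs were chosen with the expression results known, no test was made, and a match describes letters in a window and not a bound site.

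In wild-type tissue Id3, Id1, Id2 and Bmp6 were the highest members. Levels of different genes were compared as CPM per kb of exon. Among the TGF-beta ligands Tgfb2 was highest (20.7 CPM per kb), among the BMP ligands Bmp6 (26.1), followed by Bmp4 (9.29) and Bmp7 (9.28), and among the GDF ligands Gdf10 (9.51) and Gdf6 (7.14). Bmpr1a was highest of the type I receptors (18.1) and Bmpr2 of the type II receptors (14.9), and both bind BMPs. The activin type I receptor Acvr1b (16.2) stood between them. The co-receptor Tgfbr3, or betaglycan, which presents TGF-beta2 and inhibin, stood at 12.4, and Bmp1, a metalloprotease that cleaves procollagens and chordin, at 4.99. Of the Smads, the BMP effector Smad9 was highest. Id3 (79.5), Id1 (42.8) and Id2 (39.0) exceeded every other member. The secreted antagonists were low, from Nog at 3.20 down to Grem1 at 0.0938 CPM per kb, and of the activin and inhibin subunits Inha stood at 9.30, with Inhba (0.895) and Inhbb (0.815) far lower.

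**Figure D1:**
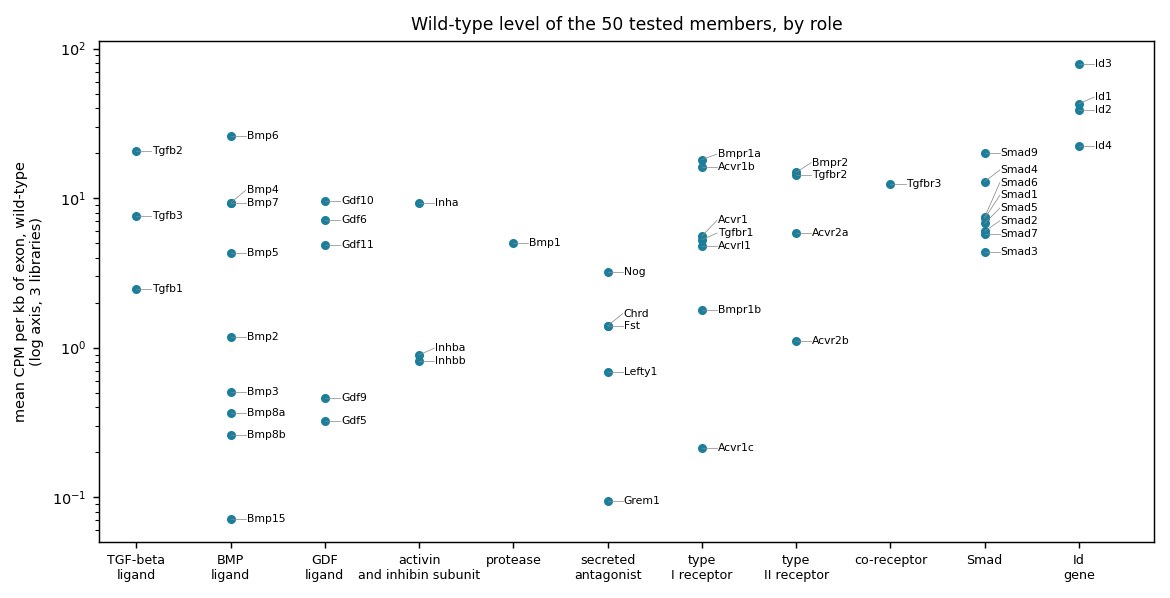
Mean wild-type level of the 50 tested members in CPM per kb of exon (log axis, mean of 3 libraries), in columns by role; thin lines join points to their symbols. The 4 Id genes form the highest column, from Id4 at 22.2 to Id3 at 79.5, and Bmp6 (26.1) and Tgfb2 (20.7) lead the ligands.

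Too few counts for a test were found for 8 members. Bmp10, Gdf1 and Inhbc had no count in any of the 12 libraries, which allows up to 0.0759 to 0.0983 CPM per library (3 counts, counting error only), and Inhbe, Gdf2, Lefty2, Gdf7 and Gdf3 had 1, 2, 3, 9 and 21 counts over all of them. Gdf1 shares its strand with Cers1, which it overlaps, and reads that lie in both genes are not counted by STAR. Of the 50 tested members, 48 reached the filter's cutoff, 0.274 CPM before TMM scaling, in every wild-type library. Bmp15 and Grem1 did not, Grem1 through the 11 counts of wild-type replicate 3 alone, and both entered the test through other genotypes. Grem1 reached the cutoff in all libraries of the 3 mutants.

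The first question was which of these genes differed from wild-type when both clarins were absent. Over- and under-expression required an adjusted p of 0.05 or less (edgeR quasi-likelihood test, Benjamini-Hochberg over 19052 genes) and a change of at least 1.5-fold, and log2 fold changes are given ± SE. In Clrn1-/-Clrn2-/- mice, the ligands Gdf6, Bmp6 and Bmp2, the target Id1, the inhibitory Smad6 and the antagonists Grem1 and Fst were over-expressed. The activin subunit Inhbb, the type I receptor Acvr1c, the Nodal antagonist Lefty1 and the ligand Bmp8b were under-expressed. The tissue was bulk, so fewer cells of a type and less RNA per cell cannot be told apart. In all, 7 of 50 members were over-expressed (14.0%, against 5.88% of all genes) and 4 under-expressed (8.0%, against 4.02%). By the adjusted p alone, 24 were higher, with 19.1% of all genes, and 8 lower, with 17.9%. The median log2 fold change of the 50 was 0.24 and that of all genes 0.00, and the median size of change was 0.30 against 0.19. The members' median was 0.13, and the counts by adjusted p were 20 higher and 10 lower (16.7% and 17.7% of all genes), without wild-type replicate 3, a library described further on. The 39 members not called ranged from log2 -0.49 to 0.82. Of these, 18 missed the adjusted p, namely Tgfb1, Bmp3, Bmp5, Bmp8a, Bmp15, Gdf5, Gdf9, Gdf10, Inhba, Bmp1, Nog, Acvr1b, Acvrl1, Bmpr1b, Acvr2b, Tgfbr2, Tgfbr3 and Smad2.

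**Figure D2:**
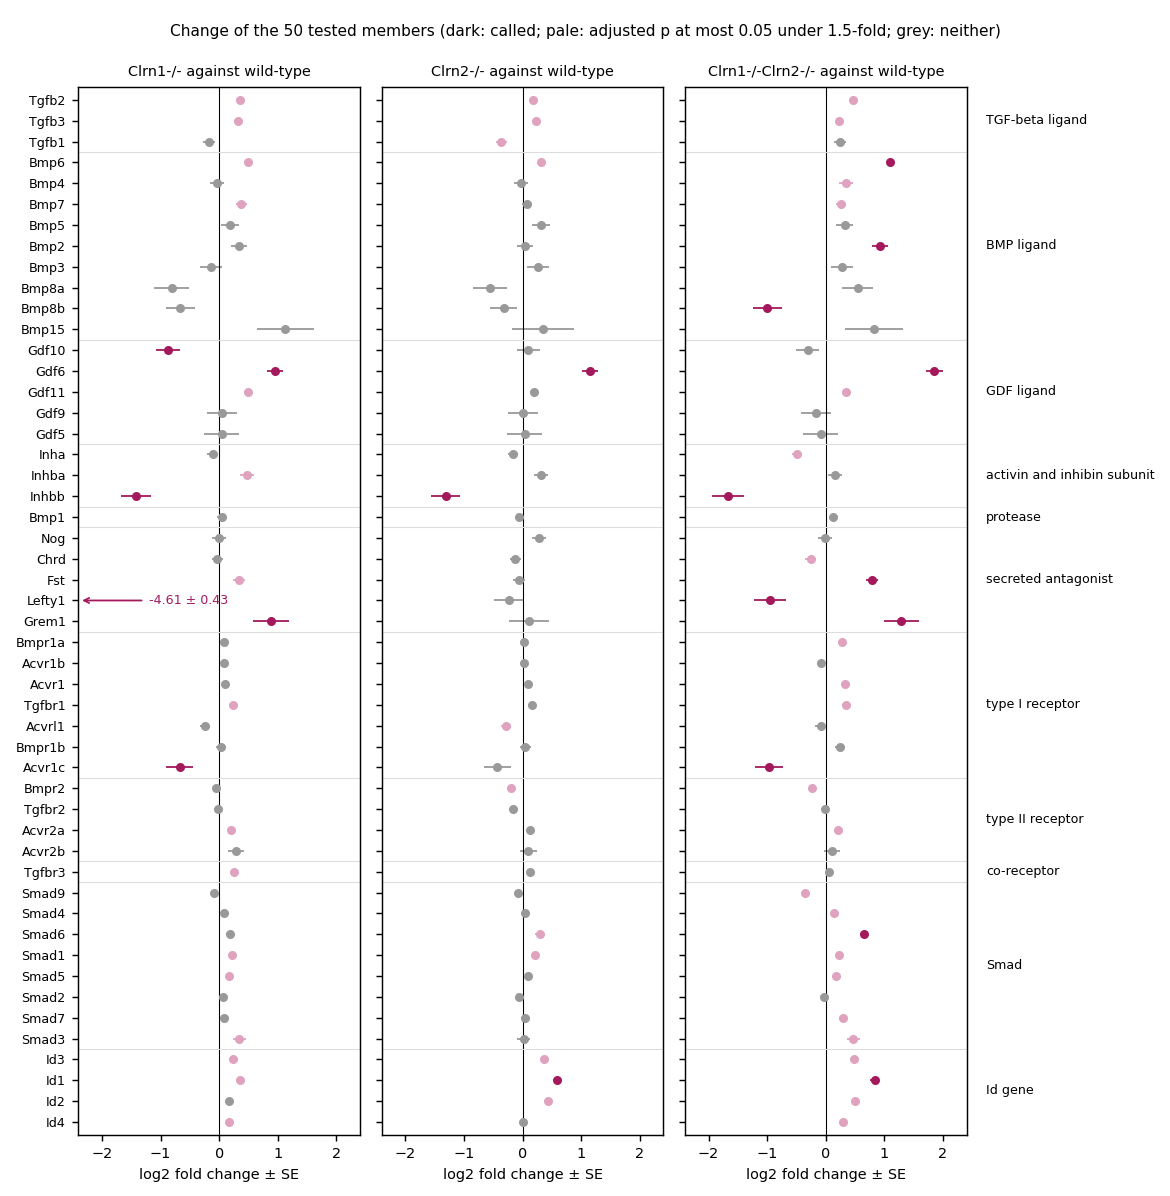
Log2 fold change ± SE of the 50 tested members against wild-type, grouped by role and ordered by wild-type level within it, with 1 panel per mutant and 3 libraries per genotype. Dark points were called, pale points had an adjusted p of at most 0.05 under 1.5-fold, and Lefty1 in Clrn1-/- (-4.61 ± 0.43) lies outside the axis; called points are most frequent in the Clrn1-/-Clrn2-/- panel, with 11 of 50.

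Bmp6, a BMP of the BMP5/6/7 subgroup that is also known as an iron-regulated inducer of hepcidin, was the most abundant BMP ligand of wild-type tissue (chr13:38345107-38500302). It stood at 104, 105 and 96.4 CPM in the wild-type libraries, 143, 144 and 141 in Clrn1-/-, 127, 119 and 134 in Clrn2-/- and 217, 220 and 213 in Clrn1-/-Clrn2-/-. All mutant libraries lay above all wild-type ones, and those without either clarin stood apart from the rest. The rise was 2.13-fold in Clrn1-/-Clrn2-/- (log2 1.09 ± 0.05, adjusted p = 1.9e-10). In each single mutant it passed the adjusted p but not the fold minimum, with log2 0.49 ± 0.05, adjusted p = 2.0e-06 in Clrn1-/- and log2 0.32 ± 0.05, adjusted p = 2.7e-04 in Clrn2-/-.

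Gdf6, a BMP-type ligand known for its role in joints and the eye, had the largest increase of any tested member in Clrn1-/-Clrn2-/- (chr4:9844372-9862345). Its values were 25.8, 24.5 and 25.3 CPM in the wild-type libraries, 43.0, 47.3 and 55.4 in Clrn1-/-, 61.2, 40.9 and 65.9 in Clrn2-/- and 82.7, 103 and 87.4 in Clrn1-/-Clrn2-/-. No mutant library reached down to the wild-type range. Gdf6 was over-expressed 1.93-fold in Clrn1-/- (log2 0.95 ± 0.14, adjusted p = 1.3e-04), 2.22-fold in Clrn2-/- (log2 1.15 ± 0.14, adjusted p = 6.2e-05) and 3.60-fold in Clrn1-/-Clrn2-/- (log2 1.85 ± 0.14, adjusted p = 6.1e-08).

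Bmp2, which drives bone and cartilage formation and signals through Bmpr1a and Bmpr1b, was much scarcer (chr2:133552159-133562885). It stood at 4.35, 5.07 and 3.09 CPM in the wild-type libraries, 5.72, 5.07 and 5.04 in Clrn1-/-, 4.03, 4.22 and 4.58 in Clrn2-/- and 7.83, 8.05 and 7.76 in Clrn1-/-Clrn2-/-. The libraries without either clarin lay above all others, while those of Clrn2-/- lay within the wild-type range. Bmp2 was over-expressed in Clrn1-/-Clrn2-/- (log2 0.92 ± 0.14, adjusted p = 6.6e-05), and in the single mutants the adjusted p was 0.0868 and 0.891.

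Bmp8b was under-expressed in Clrn1-/-Clrn2-/- (chr4:123105165-123132099), with 0.899, 1.23 and 0.910 CPM in the wild-type libraries, 0.822, 0.465 and 0.649 in Clrn1-/-, 0.914, 0.704 and 0.814 in Clrn2-/- and 0.524, 0.475 and 0.515 in Clrn1-/-Clrn2-/- and a change of log2 -1.0 ± 0.25, adjusted p = 0.00536. The libraries without either clarin all lay below those of wild-type. Bmp8b and its near-identical neighbour Bmp8a can share reads, and each overlaps a gene on its own strand, Oxct2b and Oxct2a, so the counts of this pair are uncertain. The remaining tested BMP ligands did not reach 1.5-fold with an adjusted p of at most 0.05 in Clrn1-/-Clrn2-/-. Among them Bmp4 (log2 0.34 ± 0.12, adjusted p = 0.0406) and Bmp7 (log2 0.26 ± 0.09, adjusted p = 0.0376) passed the p alone, and both missed it without wild-type replicate 3 (adjusted p = 0.199 and 0.180).

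The TGF-beta ligands moved by less. Tgfb2 went from 120 ± 11.6 CPM in wild-type to 153 ± 2.23, 136 ± 6.93 and 166 ± 1.30 in Clrn1-/-, Clrn2-/- and Clrn1-/-Clrn2-/-, higher by the adjusted p in each (log2 0.35, 0.18 and 0.47). Tgfb3, at 25.5 ± 1.52 CPM in wild-type, was likewise higher by log2 0.32, 0.23 and 0.23. None of these changes reached 1.5-fold.

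Inhbb, which encodes the beta-B subunit of activin B and inhibin B, was the only member under-expressed in all 3 mutants (chr1:119415465-119422248). It stood at 3.12, 3.97 and 3.31 CPM in the wild-type libraries, 1.11, 1.47 and 1.27 in Clrn1-/-, 0.995, 1.74 and 1.49 in Clrn2-/- and 1.54, 1.22 and 0.567 in Clrn1-/-Clrn2-/-. Every mutant library lay below every wild-type library. The decrease was 2.68-fold in Clrn1-/- (log2 -1.42 ± 0.26, adjusted p = 7.1e-04), 2.47-fold in Clrn2-/- (log2 -1.31 ± 0.25, adjusted p = 0.00272) and 3.19-fold in Clrn1-/-Clrn2-/- (log2 -1.67 ± 0.27, adjusted p = 1.2e-04). Inha, the alpha subunit that turns activin subunits into inhibin, was lower by the adjusted p in Clrn1-/-Clrn2-/- (13.7 ± 0.517 to 9.74 ± 0.834 CPM, log2 -0.49 ± 0.09).

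Among the receptors, only Acvr1c was called. It encodes ALK7, a type I receptor for Nodal and activin B, and is scarce here (chr2:58267453-58357895). Its values were 1.88, 2.16 and 1.95 CPM in the wild-type libraries, 0.949, 1.40 and 1.38 in Clrn1-/-, 0.914, 1.56 and 1.99 in Clrn2-/- and 1.02, 1.10 and 0.953 in Clrn1-/-Clrn2-/-. The Clrn1-/- and Clrn1-/-Clrn2-/- libraries lay below wild-type, and the Clrn2-/- libraries spread from below to within its range. It was under-expressed in Clrn1-/-Clrn2-/- (log2 -0.97 ± 0.24, adjusted p = 0.00499) and at the edge of the threshold in Clrn1-/- (log2 -0.67 ± 0.23, adjusted p = 0.0428). The latter call was lost under 12 of 24 other settings, namely with DESeq2, with library size alone, and without any 1 of 10 libraries (all but Clrn2-/- replicates 1 and 3), with adjusted p up to 0.159. The remaining 6 type I receptors, the 4 type II receptors and Tgfbr3 changed by less than 1.5-fold in every mutant. In Clrn1-/-Clrn2-/- the BMP receptors Bmpr1a and Acvr1 and the TGF-beta receptor Tgfbr1 were higher by the adjusted p (log2 0.28, 0.32 and 0.34), and so was Acvr2a (0.21). Bmpr2 was lower (log2 -0.24), from 267 ± 6.22 to 226 ± 2.97 CPM.

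**Figure D3:**
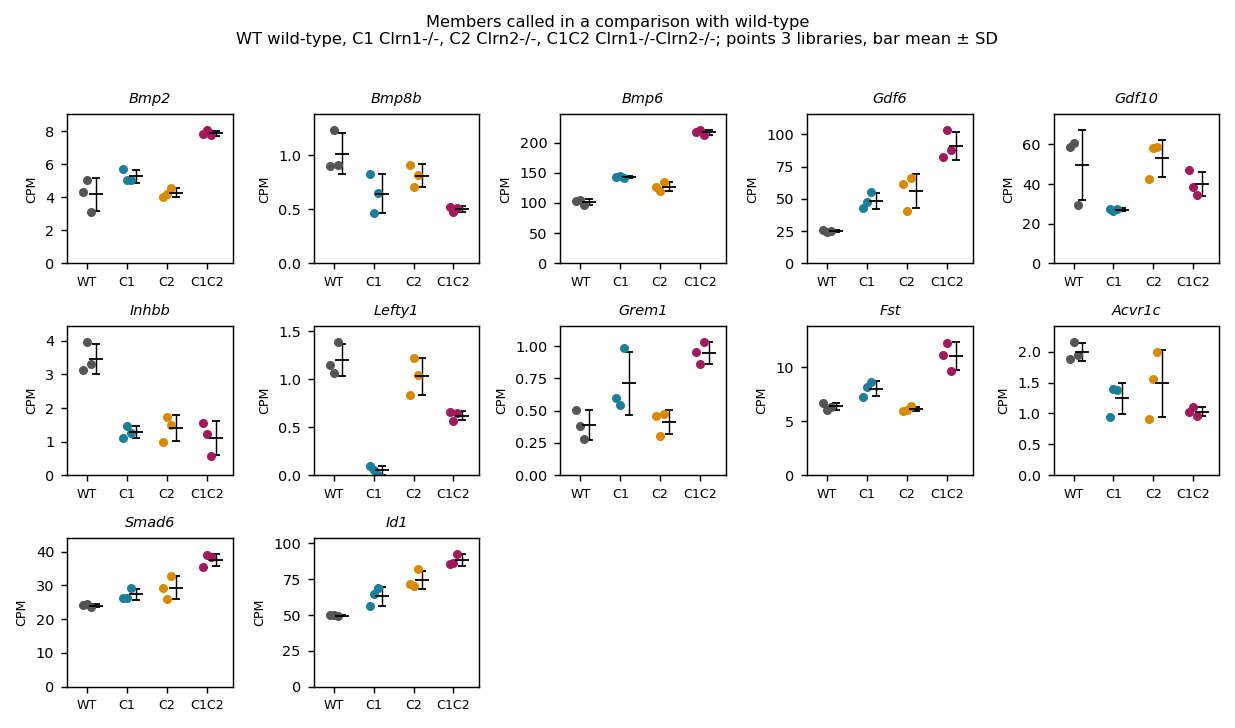
CPM of the 12 members called against wild-type in each library (points), with the mean ± SD of the 3 libraries of a genotype (bars) on axes that start at 0. Bmp6, Gdf6, Inhbb, Id1 and Smad6 separate all 9 mutant libraries from wild-type, whereas Gdf10 in wild-type spreads from 29.3 to 60.6 CPM.

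The 4 Id genes were higher by the adjusted p in Clrn1-/-Clrn2-/-, and Id1 also passed the fold minimum. Id1, an inhibitor of basic helix-loop-helix transcription factors and a classical BMP target (chr2:152736251-152737410), stood at 50.1, 49.8 and 49.1 CPM in the wild-type libraries, 56.1, 64.5 and 69.2 in Clrn1-/-, 71.6, 70.6 and 81.9 in Clrn2-/- and 85.4, 86.5 and 92.9 in Clrn1-/-Clrn2-/-. All mutant libraries lay above wild-type. The increase was 1.78-fold in Clrn1-/-Clrn2-/- (log2 0.83 ± 0.07, adjusted p = 1.9e-07), at the fold minimum in Clrn2-/- (log2 0.59 ± 0.07, adjusted p = 5.3e-05) and below it in Clrn1-/- (log2 0.35 ± 0.07, adjusted p = 0.00160). The Clrn2-/- call was lost without wild-type replicate 3 (log2 0.58) or without Clrn2-/- replicate 3 (log2 0.52), each time by the fold minimum. The other Id genes encode inhibitors of the same kind. Id2 was at 95.1 ± 5.37 CPM in wild-type and 134 ± 3.11 in Clrn1-/-Clrn2-/- (log2 0.50), Id3 at 142 ± 9.86 and 199 ± 5.25 (log2 0.48), and Id4 at 85.4 ± 0.863 and 105 ± 2.34 (log2 0.30). In Clrn1-/-, 3 of the 4 Id genes were higher by the adjusted p, with 13.6% of all genes, and 2 of 4 without wild-type replicate 3, where Id4 missed it (adjusted p = 0.0861). In Clrn2-/- 3 of 4 were higher, with 7.14% of all genes, and the same 3 passed without that library.

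Smad6, a BMP-induced inhibitor of the type I receptors (chr9:63953076-64022059), stood at 24.1, 24.4 and 23.5 CPM in the wild-type libraries, 26.3, 26.4 and 29.2 in Clrn1-/-, 29.2, 25.9 and 32.7 in Clrn2-/- and 35.4, 38.9 and 38.3 in Clrn1-/-Clrn2-/-. The mutant libraries all lay above wild-type, those without either clarin highest. It was over-expressed in Clrn1-/-Clrn2-/- (log2 0.65 ± 0.07, adjusted p = 4.4e-06) and higher by the adjusted p in Clrn2-/- (log2 0.29). The other inhibitory Smad, Smad7, was higher in Clrn1-/-Clrn2-/- (log2 0.29 ± 0.07), as were Smad1 (0.22), Smad5 (0.18), Smad3 (0.47) and Smad4 (0.14). Smad5 and Smad4 missed the p without wild-type replicate 3 (adjusted p = 0.0553 and 0.0550). Smad9 went the other way, from 108 ± 2.65 to 84.4 ± 1.01 CPM (log2 -0.35 ± 0.04). Over the Smads of the BMP arm, the inhibitory Smads and the Id genes, 8 of 9 were higher and 1 lower by the adjusted p in Clrn1-/-Clrn2-/- (19.1% and 17.9% of all genes), with a median log2 fold change of 0.30. Without wild-type replicate 3, 7 of 9 were higher.

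**Figure D4:**
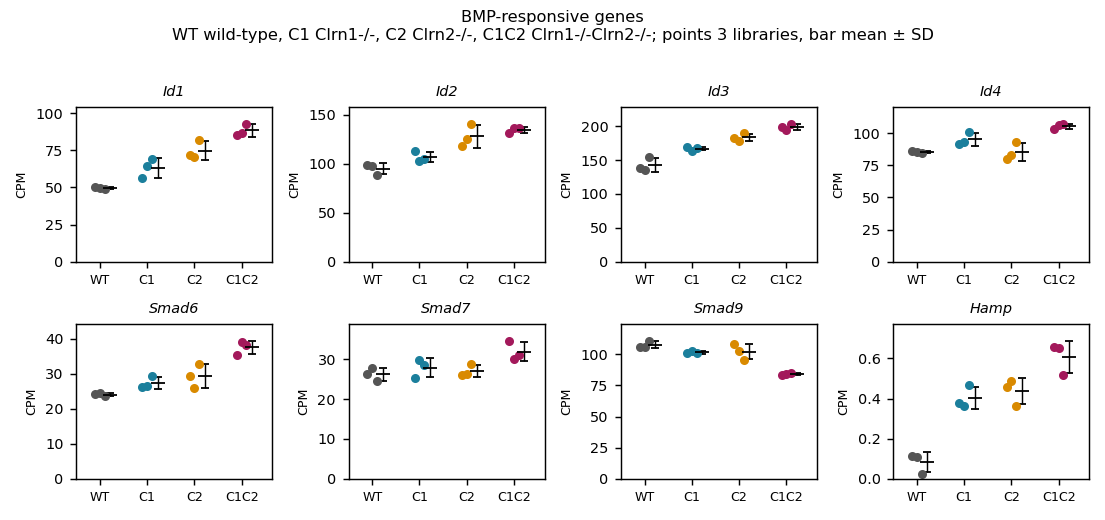
CPM per library (points) and mean ± SD (bars) of 8 BMP-responsive genes, namely the 4 Id genes, Smad6, Smad7, Smad9 and the hepcidin gene Hamp, on axes that start at 0. In Id1, Id2, Id3, Smad6 and Hamp all 9 mutant libraries lie above the wild-type ones, and Smad9 is lowest in Clrn1-/-Clrn2-/-. Hamp passed the filter on low counts only through the mutants.

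Among the secreted antagonists, Fst and Grem1 rose and Lefty1 fell in Clrn1-/-Clrn2-/-. Fst encodes follistatin, which binds activins and some BMPs (chr13:114452290-114458951). It stood at 6.74, 6.08 and 6.32 CPM in the wild-type libraries, 7.24, 8.20 and 8.67 in Clrn1-/-, 5.99, 6.03 and 6.38 in Clrn2-/- and 11.2, 12.3 and 9.71 in Clrn1-/-Clrn2-/-. The libraries without either clarin lay above all others, and the Clrn2-/- libraries overlapped with wild-type. The increase was 1.73-fold (log2 0.79 ± 0.10, adjusted p = 1.2e-05). Grem1 encodes gremlin, an antagonist of Bmp2, Bmp4 and Bmp7 (chr2:113746164-113758646). Its values were 0.505, 0.383 and 0.278 CPM in the wild-type libraries, 0.601, 0.543 and 0.986 in Clrn1-/-, 0.457, 0.306 and 0.477 in Clrn2-/- and 0.950, 0.861 and 1.03 in Clrn1-/-Clrn2-/-, from 11 to 18 counts per wild-type library and 29 to 40 without either clarin. Grem1 was over-expressed in Clrn1-/-Clrn2-/- (log2 1.29 ± 0.30, adjusted p = 0.00286). In Clrn1-/- it was called at the edge of the threshold (log2 0.88 ± 0.31, adjusted p = 0.0450), and the call was lost under 15 of 24 other settings, with adjusted p up to 0.238. It was lost without any 1 of 9 libraries, all but wild-type replicate 1, Clrn1-/- replicate 2 and Clrn2-/- replicate 2. The other settings that lost it included a fit with the replicate number as a block, which pairs the libraries of wild-type and Clrn1-/- by number (log2 0.87, adjusted p = 0.0501, or 0.123 with these 2 genotypes alone). Nog, at 5.42 ± 0.482 CPM in wild-type and 5.42 ± 0.680 in Clrn1-/-Clrn2-/-, and Chrd, at 8.74 ± 0.584 and 7.29 ± 0.50, were not called in any mutant.

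In Clrn1-/- mice, 2 of 50 members were over-expressed (4.0%, against 3.52% of all genes), namely Gdf6 and Grem1, and 4 under-expressed (8.0%, against 3.70%), namely Lefty1, Inhbb, Gdf10 and Acvr1c. By the adjusted p alone, 18 were higher and 4 lower, with 13.6% and 13.3% of all genes, and the median log2 fold change was 0.10 against 0.00 (0.15 without wild-type replicate 2). The 16 members that were higher by p alone changed by log2 0.16 to 0.49, with Bmp6, Gdf11 (0.49) and Inhba (0.48) at the upper end. In Clrn2-/- mice, Gdf6 and Id1 were over-expressed (4.0%, against 1.24%) and Inhbb under-expressed (2.0%, against 1.42%). By the adjusted p alone, 9 were higher (7.14% of all genes) and 4 lower (7.07%), with a median of 0.05 against 0.00. That median was 0.00 without wild-type replicate 3, 0.11 without replicate 1 and 0.10 without replicate 2, and so rests on which wild-type libraries are used. The 3 comparisons share the wild-type libraries, so a change called in all 3 does not amount to 3 independent findings.

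Lefty1, a secreted antagonist of Nodal, had the largest change of any tested member (chr1:180935022-180938400). It had 41, 39 and 55 counts in the wild-type libraries, 3, 2 and 0 in Clrn1-/-, 31, 40 and 37 in Clrn2-/-, and 20, 19 and 25 in Clrn1-/-Clrn2-/-. No Clrn1-/- library came near any other, and the libraries without either clarin lay between Clrn1-/- and wild-type. Scaled for depth, Clrn1-/- held 3.80% of the wild-type level (95% exact interval 1.21% to 9.09%, counting error only) and Clrn1-/-Clrn2-/- 51.4% (37.6% to 69.7%). Lefty1 was under-expressed in Clrn1-/- (log2 -4.61 ± 0.43, adjusted p = 1.6e-06) and in Clrn1-/-Clrn2-/- (log2 -0.95 ± 0.27, adjusted p = 0.0111), and the fitted change in Clrn1-/- rests on these few counts. Lefty2, its near-identical copy, had 3 counts in all 12 libraries. Of 17 tested genes within 500 kb of Lefty1, 2 were called in Clrn1-/-, both lower, and none of the 15 members named here for a call lies on chromosome 3 or 5, which hold Clrn1 and Clrn2.

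Tdgf1, the gene of Cripto, a co-receptor that Nodal needs and Lefty proteins block, belongs to the list of other pathway genes and is named here because it moved in the same libraries. It had 50, 49 and 38 counts in wild-type, 5, 7 and 8 in Clrn1-/-, 34, 28 and 32 in Clrn2-/-, and 29, 18 and 21 in Clrn1-/-Clrn2-/-. Clrn1-/- again stood below every other library. It held 15.0% of the wild-type level (8.87% to 24.1%), and the fit gave log2 -2.72 ± 0.31, adjusted p = 1.1e-05 in Clrn1-/- and log2 -0.88 ± 0.25, adjusted p = 0.0105 in Clrn1-/-Clrn2-/-. Nodal itself had between 0 and 3 counts per library in every genotype.

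Gdf10, or BMP3B, a divergent family member related to Bmp3, was under-expressed in Clrn1-/- (chr14:33923587-33937983). It stood at 58.8, 60.6 and 29.3 CPM in the wild-type libraries, 27.5, 26.3 and 27.4 in Clrn1-/-, 42.4, 58.2 and 58.9 in Clrn2-/- and 46.9, 38.7 and 34.7 in Clrn1-/-Clrn2-/-. Wild-type replicate 3 lay next to the Clrn1-/- libraries, which were all below wild-type, and the Clrn1-/-Clrn2-/- libraries overlapped with wild-type. The change was log2 -0.87 ± 0.20, adjusted p = 0.00512, and log2 -1.14 ± 0.12 (adjusted p = 5.2e-06) without that library. In Clrn1-/-Clrn2-/- Gdf10 was not called (log2 -0.31 ± 0.20, adjusted p = 0.257), but was without wild-type replicate 3 (log2 -0.59 ± 0.12, adjusted p = 0.00105).

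Wild-type replicate 3 was low in the BMP ligands in general. It was the lowest wild-type library for 8 of 9 tested BMP ligands and for 26 of the 50 members (52.0%), against 31.8% of all genes. Bmp7 for example stood at 40.3, 41.7 and 29.8 CPM in wild-type replicates 1, 2 and 3. The summed markers of macrophages (150, against 187 and 195 CPM), of the stria vascularis (1097, against 1322 and 1454) and of dividing cells (13.0, against 20.8 and 31.2) were also lowest there, as were those of red blood cells (710, against 1159 and 863), endothelium (311, against 354 and 343) and Schwann cells (21493, against 22149 and 22677). The summed markers of hair cells, supporting cells, neurons, fibroblasts, bone and skeletal muscle were highest in that library. The part of these cell types in the values was not tested. Without this library, all 11 calls in Clrn1-/-Clrn2-/- were made again, and Gdf10 was added. In Clrn1-/- those of Grem1 (log2 0.68, adjusted p = 0.157) and Acvr1c (log2 -0.69, adjusted p = 0.0647) were lost and Bmp8a was gained (log2 -0.96, adjusted p = 0.0367).

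The mutants were also compared with each other. Against Clrn1-/-, 4 members were called in Clrn1-/-Clrn2-/- (8.0%, against 7.23% of all genes), all higher. They were Lefty1 (log2 3.66 ± 0.49, adjusted p = 3.3e-05), Bmp8a (log2 1.34 ± 0.29, adjusted p = 0.00197), Gdf6 (log2 0.90 ± 0.13, adjusted p = 8.3e-05) and Bmp6 (log2 0.60 ± 0.05, adjusted p = 1.5e-07). Against Clrn2-/-, 7 members were called (14.0%, against 5.10%), again all higher. Grem1 (log2 1.18 ± 0.30, adjusted p = 0.00774), Bmp8a (log2 1.10 ± 0.28, adjusted p = 0.00862) and Bmp2 (log2 0.88 ± 0.14, adjusted p = 2.4e-04) changed most, followed by Fst (log2 0.85), Bmp6 (0.77), Gdf6 (0.70) and Tgfb1 (0.60). The Gdf6 call was lost without Clrn2-/- replicate 2 and the Tgfb1 call without Clrn1-/-Clrn2-/- replicate 1. Between the single mutants, Lefty1 (log2 -4.38 ± 0.44, adjusted p = 5.4e-06) and Gdf10 (log2 -0.97 ± 0.20, adjusted p = 0.00377) were lower in Clrn1-/- than in Clrn2-/- (4.0%, against 4.73% called in either direction).

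The interaction asks whether the loss of 1 clarin had another effect where the other was already missing. It was called in 4 members (8.0%, against 5.50% of all genes). Bmp8a stood at 0.899, 1.04 and 0.683 CPM in the wild-type libraries, 0.537, 0.388 and 0.571 in Clrn1-/-, 0.403, 0.765 and 0.618 in Clrn2-/- and 1.64, 1.22 and 0.979 in Clrn1-/-Clrn2-/- (chr4:123312645-123343252). Both single mutants had lower means than wild-type and the mutant without either clarin a higher one, although its libraries overlapped with wild-type and none of the 3 comparisons with wild-type was called. The interaction was log2 1.90 ± 0.41, adjusted p = 0.00473. Tgfb1, the TGF-beta ligand of immune and many other cells (chr7:25687002-25705077), stood at 14.1, 13.0 and 10.2 CPM in the wild-type libraries, 11.4, 11.5 and 10.3 in Clrn1-/-, 9.57, 9.70 and 9.72 in Clrn2-/- and 16.1, 14.0 and 14.0 in Clrn1-/-Clrn2-/-. Its mean was likewise lower in the single mutants and higher without either clarin, with overlap of Clrn1-/- and Clrn1-/-Clrn2-/- with wild-type, and the interaction was log2 0.77 ± 0.15, adjusted p = 0.00190. Inhba, the beta-A subunit of activin A (chr13:16011851-16031621), stood at 5.95, 5.97 and 5.23 CPM in the wild-type libraries, 7.97, 8.43 and 7.45 in Clrn1-/-, 7.26, 6.0 and 8.09 in Clrn2-/- and 5.34, 6.92 and 6.80 in Clrn1-/-Clrn2-/-. The single mutant libraries lay above wild-type and those without either clarin overlapped with it. The interaction was log2 -0.64 ± 0.17, adjusted p = 0.0186, and was lost without wild-type replicate 3, Clrn1-/- replicate 2, Clrn2-/- replicate 3 or Clrn1-/-Clrn2-/- replicate 1. For Lefty1, the fall seen in Clrn1-/- was smaller where Clrn2 was also mutated (log2 3.89 ± 0.56, adjusted p = 2.2e-04).

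**Figure D5:**
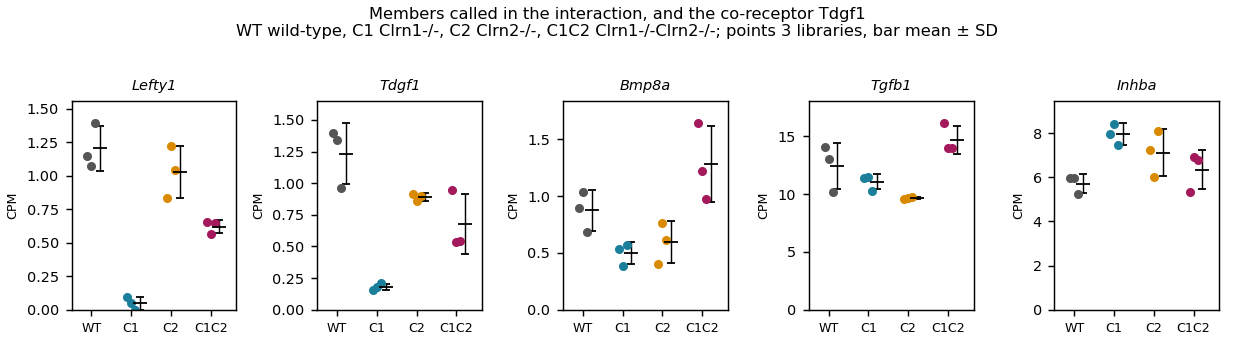
CPM per library (points) and mean ± SD of 3 libraries (bars) of the 4 members called in the interaction and of Tdgf1, on axes that start at 0. Lefty1 and Tdgf1 are lowest in the 3 Clrn1-/- libraries and intermediate in Clrn1-/-Clrn2-/-, while Bmp8a and Tgfb1 are highest in Clrn1-/-Clrn2-/-.

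A further 78 genes of the pathway were listed by role, and 73 were tested. In Clrn1-/-Clrn2-/- 10 were over- and 2 under-expressed (5.88% and 4.02% of all genes), in Clrn1-/- 4 and 3 (3.52% and 3.70%), and in Clrn2-/- 3 and 1 (1.24% and 1.42%), with median log2 fold changes of 0.20, 0.15 and 0.00. Of 10 TGF-beta targets, 3 were over-expressed in Clrn1-/-Clrn2-/-, namely the matricellular genes Ccn2 (84.0 ± 2.55 to 175 ± 4.92 CPM, log2 1.06 ± 0.04, adjusted p = 8.0e-11) and Ccn1 (log2 0.66) and the transcription factor Junb (log2 0.91), with a median of 0.49 over the list. Ccn1, Junb and Atoh8 are named to complete these counts and were chosen after their values were seen. Of 8 further BMP targets, Atoh8 was over-expressed there among the 7 that did not enter the test through the mutants alone. Hamp, the gene of hepcidin, did so, with 9 counts over the wild-type libraries and 44, 46 and 62 in Clrn1-/-, Clrn2-/- and Clrn1-/-Clrn2-/-. It is among the genes counted as over-expressed in each mutant, but had to differ to be tested, and its values are a description. Atoh8, a basic helix-loop-helix factor, stood at 10.4 ± 0.974 and 18.2 ± 1.70 CPM (log2 0.81). Fbn2, a microfibril protein that holds latent ligand complexes, was over-expressed in all 3 mutants (log2 0.78, 0.62 and 1.02), as was the distant family member Gdnf (log2 0.87, 0.77 and 0.98). Hjv, the hemojuvelin co-receptor of BMP6, passed the filter through wild-type alone, with 75 counts there and 12, 10 and 13 in Clrn1-/-, Clrn2-/- and Clrn1-/-Clrn2-/-. Its log2 fold changes of -2.58, -2.79 and -2.39 are therefore a description. It is among the genes counted as under-expressed in each mutant, and is the only such gene in Clrn2-/-. Bmper, a BMP-binding protein, was under-expressed in Clrn1-/- (log2 -0.81), with wild-type libraries at 11.0, 13.3 and 6.70 CPM.

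Markers of several cell types moved with the same genotypes. The 12 hair cell markers, among them Myo7a and Otof, were all present, with a sum of 578 to 663 CPM in wild-type and 715 to 751 in Clrn1-/-Clrn2-/-, where 3 were over- and 1 under-expressed. The 12 supporting cell markers summed to 2960 to 3272 CPM in wild-type and 6037 to 6567 in Clrn1-/-Clrn2-/-, with 6 over- and 1 under-expressed. The 10 macrophage markers went from 150 to 195 CPM up to 244 to 286, with 6 over-expressed, and the 10 fibroblast markers stood at 7034 to 8236 CPM in wild-type and 7919 to 8984 in that mutant, with 4 over-expressed. The 12 neuron markers went from 15196 to 16796 CPM down to 10189 to 10487, with 5 under-expressed. The skeletal muscle markers went from 542 to 627 CPM down to 385 to 411, with 2 under-expressed. The stria vascularis markers stood at 1097 to 1454 CPM in wild-type and 1290 to 1338 in Clrn1-/-Clrn2-/-, with 2 over- and 3 under-expressed. The 7 red blood cell markers stood at 710 to 1159 CPM in wild-type, 286 to 389 in Clrn1-/- (6 under-expressed), 438 to 656 in Clrn2-/- (5) and 547 to 738 in Clrn1-/-Clrn2-/- (2). In Clrn1-/- the macrophage markers stood at 241 to 260 CPM, with 3 over-expressed, and the neuron markers at 13126 to 13726, with none called. The fibroblast markers stood at 5914 to 6434 CPM there, with 3 over- and 1 under-expressed and a median log2 fold change of 0.25. Of the hair cell markers, 1 was over- and 2 under-expressed in Clrn1-/-, and 3 were over-expressed in Clrn2-/-. In Clrn2-/- the fibroblast markers stood at 5406 to 6049 CPM, with 2 under-expressed. Another 2 of them were higher by the adjusted p, and their median log2 fold change was 0.07. The supporting cell markers stood at 3380 to 4137 CPM in Clrn2-/-, with 3 over-expressed, and the macrophage markers at 176 to 223, with 1 over-expressed. Of all genes, 5.88% were over- and 4.02% under-expressed in Clrn1-/-Clrn2-/-, 3.52% and 3.70% in Clrn1-/-, and 1.24% and 1.42% in Clrn2-/-. None of the markers was at 0 in all libraries, and the part of these cell types in the changes of the pathway genes was not tested.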

How the data were processed

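RNA of 12 libraries was sequenced by the authors, aligned with STAR to GRCm38.p6 and deposited as counts per gene of the Gencode vM24 annotation. The stranded column that matched the library kit was used, with 95.2% to 95.6% of stranded counts. Reads on no gene (13.5% to 15.8%) stayed out of the library sizes. Gene positions and lengths came from Gencode M21, and all 58 members matched. Genes were kept by filterByExpr (minimum count 10, 19052 genes), scaled by TMM (factors 0.963 to 1.02) and tested with edgeR 4.0.16 (quasi-likelihood, R 4.3.3) in 1 model of 4 genotypes, with Benjamini-Hochberg adjustment over all genes, at an adjusted p of 0.05 and 1.5-fold. limma 3.58.1, DESeq2 1.42.0, other filters and scalings, leaving out each library and a replicate block were alternatives. The scripts were tested on simulated data. Depth varied by less than 1.5-fold, and the common coefficient of variation between replicates was 6.15%. Replicate numbers were checked as pairs by the correlation of deviations from the group means. Only wild-type and Clrn1-/- had all 3 pairs over 0.1 (0.291, 0.134 and 0.111). The members, the gene lists and the tests were chosen with earlier results of these data known. Named were members called in any comparison, the highest member of each role per length, members past the adjusted p in Clrn1-/-Clrn2-/-, and of the further pathway genes up to 3 called per direction and comparison.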

Additional observations from a re-analysis of the deposited data

Results flagged for a closer look

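By the interaction term of the edgeR model, the effect of losing 1 clarin differed with the state of the other for 4 members. This is 8.0% of the members tested, against 5.50% of all genes. The interaction was log2 3.89 for Lefty1 (adjusted p = 2.2e-04), 1.90 for Bmp8a (adjusted p = 0.00473), 0.77 for Tgfb1 (adjusted p = 0.00190) and -0.64 for Inhba (adjusted p = 0.0186). Lefty1 rests on 5 counts in the Clrn1-/- libraries, and Bmp8a may share reads with Bmp8b and Oxct2a. The Inhba call was lost when some single libraries were left out.

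Counts on the strand opposite to a gene lie outside the main measurement. They were sufficient for a test in 19 members, against wild-type. Tgfb2 had 121, 127 and 173 opposite-strand counts in wild-type and 209, 302 and 271 in Clrn1-/- (log2 0.84, adjusted p = 3.9e-06), which is 3.04% and 4.48% of its stranded counts. Bmp7 had 18, 28 and 20 in wild-type and 47, 38 and 38 in Clrn1-/- (log2 0.85, adjusted p = 0.0295), or 1.57% and 2.28%. Id4 went the other way in Clrn1-/-, from a mean of 60.0 opposite-strand counts in wild-type to 40.7 (log2 -0.61, adjusted p = 0.0325). In Clrn1-/-Clrn2-/-, Gdf6 had 12, 8 and 17 against 0, 2 and 4 in wild-type (log2 2.60, adjusted p = 0.00771). With so few wild-type counts, Gdf6 entered this test through the mutants alone, and its values are a description. Bmp6 had 83, 95 and 96 in Clrn1-/-Clrn2-/- against 63, 62 and 64 in wild-type (log2 0.59, adjusted p = 0.0120). Its opposite-strand share was lower there, at 1.21% against 1.64% in wild-type. Opposite-strand reads can stem from the same transcript or from antisense transcription, and the cause was not tested.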

How the results depend on the processing

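In Clrn1-/-Clrn2-/- all 11 calls against wild-type were kept under all 24 alternatives. The alternative without a fold minimum is among these and could not lose a call. Leaving out 1 library at a time gave 7 to 8 members over- and 4 to 5 under-expressed there, 1 to 2 and 3 to 5 in Clrn1-/-, and 1 to 2 and 1 to 1 in Clrn2-/-. It gave 4 to 6 members called against Clrn1-/-, 6 to 8 against Clrn2-/-, 2 to 2 between the single mutants and 3 to 6 in the interaction. Shares of all genes past both thresholds were not determined for these fits. Over-expressed members in Clrn1-/- numbered 1 rather than 2 with limma-voom, DESeq2, a filter on FPKM of at least 0.1, the 2 genotypes alone, the replicate block, and the 2 genotypes alone with the replicate block, Grem1 being lost each time. No other call of a named member against wild-type changed with the replicate block. Without a fold minimum, 18 members were over-expressed in Clrn1-/- (against 13.6% of all genes). In Clrn2-/- 9 were over- and 4 under-expressed (against 7.14% and 7.07%), and in Clrn1-/-Clrn2-/- 24 and 8 (against 19.1% and 17.9%). At this setting 19 were called against Clrn1-/-, 19 against Clrn2-/-, 12 between the single mutants and 13 in the interaction. The share of all genes was not determined for these latter counts, which are therefore not read as a result. Of 1079 values of named members against wild-type under an alternative, 29 lost a call, 15 gained one and 5 reversed. Some of the gains came from dropping the fold minimum, which can only add calls. The reversed values were changes in Clrn2-/- that were not called. Over the libraries left out in turn, Grem1 ranged from -0.09 to 0.33, Gdf10 from -0.17 to 0.28 and Bmp2 from -0.14 to 0.21, with Grem1 and Bmp2 also at -0.01 without Clrn2-/- replicate 3. Grem1 had under 20 counts in each wild-type library, and the effect of depth on its calls was not tested.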
